A study of Mus musculus with 16 samples.

Results

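Of 831 genes listed for mouse tibialis anterior, a fast muscle of the lower hindlimb, 59 met a rule for genes lower in muscle that lacked both dystrophin and miR-133b while muscle that lacked dystrophin alone stayed near Control. They were selected on the group means of Control, mdx and mdx/miR-133b-/-: an mdx mean of 0.75 to 1.33 times the Control mean and an mdx/miR-133b-/- mean of at most 0.67 times the mdx mean, to 2 digits. It was applied to the 727 protein-coding autosomal genes that were left after respiratory chain subunits, mitochondrially encoded genes and 9 other named genes were set aside. A further 101 of those genes had mdx near Control without being that much lower in the double mutant. A mirror set of 39 of them was at least 1.5 times higher there.

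RNA sequencing covered 4 groups of 4 libraries, all at postnatal day 30 (P30). The genotypes were Wild Type (called Control), miR-133b-/- (miR-133b deleted, dystrophin gene not named as altered), mdx-/- (called mdx) and mdx-/-;miR-133b-/- (called mdx/miR-133b-/-, the double mutant). The labels give no strain or sex, describe the tissue as whole skeletal muscle from tibialis anterior, and do not say whether each library is 1 animal, so a p-value measures the spread between libraries only. Values are reads per gene scaled by 1 factor per library by the authors, called scaled reads here.

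Duchenne muscular dystrophy and its mouse model mdx lack dystrophin, the protein that ties the fibre's actin skeleton to the membrane and the matrix. Fibres of mdx limb muscle degenerate and regenerate in the first weeks of life. A microRNA pairs through its seed with sites in the 3′ UTR of messenger RNAs and lowers their level or their translation, and miR-133b is a microRNA abundant in muscle. Loss of a microRNA is known to raise the level of its direct targets. The study's title names a role of miR-133b in slowing the disease.

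The libraries held between 2356990 and 6000033 reads in the listed genes. The free-text description of 14 of the 16 samples carried the code of another library, and columns were assigned by the code in each title, which goes with the stated genotype. Neither the dystrophin gene nor the miR-133b locus was analysed here, so the genotypes were not checked from the values. All listed genes differed at least 1.72-fold between mdx/miR-133b-/- and miR-133b-/-. Of 15 genes named as marking muscle, 5 were listed, and their summed level was 600693 to 741208 in Control, 321305 to 736481 in miR-133b-/-, 380915 to 556720 in mdx and 258447 to 323576 in mdx/miR-133b-/-. The summed level of the 14 listed macrophage genes, of 20 in the list, was 1552 to 2529 in Control, 1037 to 2900 in miR-133b-/-, 7562 to 11805 in mdx and 4232 to 16782 in mdx/miR-133b-/-. No neutrophil, erythrocyte, pericyte, adipocyte or Schwann cell gene of the lists used was listed. Because every listed gene differed between mdx/miR-133b-/- and miR-133b-/-, the sums hold only markers with such a difference. They do not measure the amount of a cell type, and absence from the list says nothing of a marker's level. In whole muscle, fewer cells of a type and less RNA per cell cannot be told apart, and the part of these shifts in the results below was not tested.

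**Figure D1:**
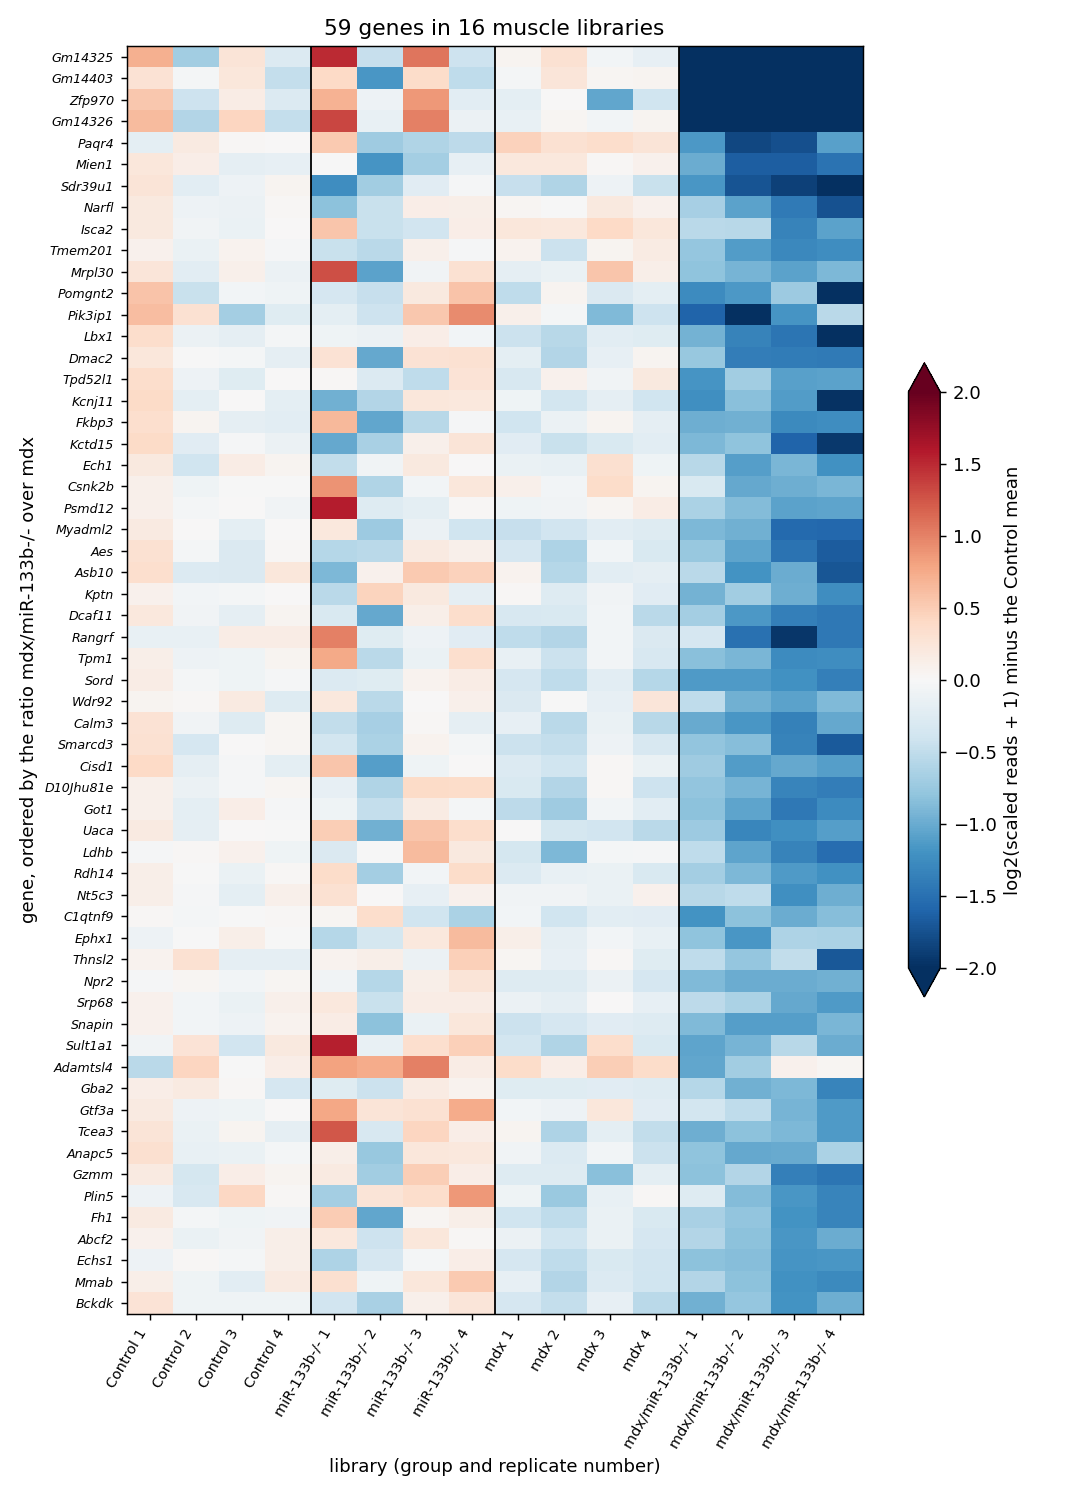
Level of each of the 59 genes (rows, ordered by their ratio of mdx/miR-133b-/- to mdx) in each of the 16 libraries (columns), as the log2 difference from the Control mean on the colour scale. The 4 mdx/miR-133b-/- columns are lower than the mdx columns by construction, the 4 genes of the chromosome 2 block stand apart from the rest, and miR-133b-/- library 2 is the lowest of its group in 40 genes.

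Because the rule used Control, mdx and mdx/miR-133b-/-, the differences among these groups are given as a description only. Over the 59 genes the median ratio of mdx/miR-133b-/- to mdx was 0.569, against 0.997 over all 831 listed genes. The median ratio of mdx to Control was 0.850, and 50 of the 59 genes lay below 1 and 9 above. This nearness to Control depends on the scaling: with relative log expression factors the median log2 difference of mdx minus Control was -0.59 in place of -0.23, and 15 of the 59 genes still met the rule. The ratio of mdx/miR-133b-/- to mdx was at most 0.5 in 15 genes, between 0.5 and 0.6 in 26, and at least 0.6 in 18. All 4 mdx/miR-133b-/- libraries lay below all 4 mdx libraries in 51 of the 59 genes, and below all 12 other libraries in 35. Over all listed genes the same 2 patterns held for 16.2% and 11.6%.

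The miR-133b-/- libraries took no part in the rule, and their comparison with Control is the one tested here. No gene of the set passed the test: limma with Benjamini-Hochberg adjustment over all 831 genes called 0 of the 59 higher and 0 lower, against 0.00% of all listed genes in either direction. Unadjusted p was under 0.05 in 4 of the 59, against 10.1% of all listed genes, and limma-voom on whole reads also called 0. The list restricts this comparison: the double mutant mean was at most 0.572 times the miR-133b-/- mean in each of the 59 genes, so none of them could be listed with miR-133b-/- as low as the double mutant. How many lie below Control is thus partly fixed by the selection and is given as a description. The median log2 difference was -0.03 over the 59 genes and -0.07 over all listed genes, and 31 of the 59 ratios were above 1 and 28 below. The ratio of miR-133b-/- to Control lay between 0.75 and 1.33 in 50 genes. Adjusted p over the 59 genes ran from 0.377 to 0.998, and the median standard error of the log2 difference was 0.24, ranging from 0.16 to 0.49.

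The genes with the smallest p in this comparison show how far single values differed. Adamtsl4 (chr3:95676201-95687917), a secreted protein linked to microfibrils, read 166, 326, 241 and 266 in Control, 424, 408, 491 and 269 in miR-133b-/-, 313, 267, 341 and 314 in mdx, and 118, 149.8, 257 and 249.5 in mdx/miR-133b-/-. It was 0.68 higher in miR-133b-/- than in Control on the log2 scale (SE 0.26, limma adjusted p = 0.377), and the groups overlapped. Gtf3a (chr5:146948657-146955614), the factor TFIIIA that starts transcription of 5S ribosomal RNA, read 332, 275, 276 and 295 in Control, 502, 349.8, 361 and 494 in miR-133b-/-, 282, 273, 343 and 249.8 in mdx, and 228, 205, 153 and 134 in mdx/miR-133b-/-. This was the single gene of the 59 whose miR-133b-/- libraries all lay above Control, a pattern that 2.77% of listed genes showed, and none of the 59 lay wholly below Control, a pattern of 1.93%. It had a log2 difference of 0.52 (SE 0.20, limma adjusted p = 0.389). Sult1a1 (chr7:126672865-126676432), a phenol sulfotransferase, read 222, 282, 178 and 267 in Control, 685, 211, 296 and 326 in miR-133b-/-, 180.4, 154, 299.7 and 189 in mdx, and 111, 123, 159 and 117 in mdx/miR-133b-/-. Library 1 of miR-133b-/- was far above the rest, and the log2 difference was 0.55 (SE 0.29, limma adjusted p = 0.563), or 0.22 without that library.

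In the other direction, Sdr39u1 (chr14:55897283-55900293), an enzyme of the short-chain dehydrogenase family, read 953, 694, 747 and 829 in Control, 337, 492, 685 and 791 in miR-133b-/-, 584, 529, 744 and 589.9 in mdx, and 355, 241, 218 and 176 in mdx/miR-133b-/-. Its log2 difference between miR-133b-/- and Control was -0.55 (SE 0.25, limma adjusted p = 0.435), or -0.31 without miR-133b-/- library 1, with overlapping groups. Mien1 (chr11:98437708-98438991), a small membrane-attached protein linked to cell migration, read 267, 249, 200.4 and 204 in Control, 226, 101, 143 and 203 in miR-133b-/-, 266, 264, 232 and 241 in mdx, and 114, 72.2, 72.2 and 81 in mdx/miR-133b-/-. The log2 difference was -0.51 (SE 0.24, limma adjusted p = 0.476), or -0.29 without miR-133b-/- library 2. Calm3 (chr7:16915379-16924114), one of the genes for the calcium sensor calmodulin, read 2187, 1708, 1499 and 1841 in Control, 1267, 1132, 1829 and 1580.1 in miR-133b-/-, 1596, 1226, 1642 and 1225 in mdx, and 889, 796, 701 and 882 in mdx/miR-133b-/-. Its difference was -0.33 (SE 0.19, limma adjusted p = 0.565), or -0.22 without miR-133b-/- library 2 and -0.17 with relative log expression factors, another scaling of the libraries. Unadjusted limma p was under 0.05 in Adamtsl4, Gtf3a, Sdr39u1 and Mien1, but none of these 6 differences passed after adjustment over all listed genes. Neither a change nor its absence was shown. Besides Sdr39u1 and Mien1, no gene had a miR-133b-/- mean under 0.75 times Control. Those over 1.33 times Control were Gm14325, Gm14326, Psmd12, Sult1a1, Adamtsl4, Gtf3a and Tcea3.

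The 4 genes furthest from the rest are zinc finger genes in one stretch of distal chromosome 2 (GRCm38), between 177464733 and 177957297. In order they are Zfp970 (chr2:177464733-177478129), Gm14403 (chr2:177498215-177509763), Gm14325 (chr2:177831791-177840336) and Gm14326 (chr2:177935993-177957297). All but Zfp970 are predicted gene models and were named after their values were seen. Genes of this kind code for C2H2 zinc finger proteins, which bind DNA, and lie in mice as clusters of near copies. Each was at or near 0 in all 4 mdx/miR-133b-/- libraries and was read in all 12 other libraries.

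Gm14325 read 257, 96.7, 187 and 129.9 in Control, 441, 113, 331 and 117 in miR-133b-/-, 162, 193, 151 and 139 in mdx, and 0, 0, 0 and 0 in mdx/miR-133b-/-. That is 1132 whole reads over the mdx libraries and none over the double mutants, at least 372-fold lower when a floor of 3 reads over the group is used. Gm14403 read 95.8, 75.8, 92.1 and 56 in Control, 103, 34.3, 102 and 55 in miR-133b-/-, 75.9, 93, 80 and 81.4 in mdx, and 0, 0, 0 and 1.32 in mdx/miR-133b-/-. The dystrophic totals were 580 and 2 whole reads, a ratio of read rates of 0.0035. The rule chose the genes on this comparison, so such ratios are a description only. Zfp970 read 143, 72.6, 108 and 80.6 in Control, 158, 90.7, 179 and 84.3 in miR-133b-/-, 85.2, 98.5, 46.9 and 73.5 in mdx, and 0.459, 0.663, 0.578 and 0.658 in mdx/miR-133b-/-. The totals were 532 and 4, a ratio of 0.00763, and its mdx to Control ratio of 0.752 sat at the lower edge of the rule. Gm14326 read 187, 80.2, 162 and 86.6 in Control, 307, 108, 244 and 111 in miR-133b-/-, 108, 124, 116 and 125 in mdx, and 5.5, 0.663, 0 and 0.658 in mdx/miR-133b-/-. Its totals were 831 and 14, a ratio of 0.0171, with most of the remaining signal in library 1.

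In miR-133b-/-, all 4 genes were read at levels that overlapped Control. In both Control and miR-133b-/-, libraries 1 and 3 were above libraries 2 and 4 in each of the 4 genes. Copies of this family share sequence, so reads may have been assigned to another copy: of all 50-base stretches of the transcript, 85.2% in Gm14326, 81.7% in Gm14325, 45.4% in Zfp970 and 35.7% in Gm14403 also occur in another gene. Gm14325 and Gm14326 share 72.2% of the shorter one's stretches, and the other 5 pairs share 0.73% to 7.29%. The separate levels of the 4 genes are therefore uncertain.

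Their promoters are shown because the 4 genes were low together and differ little in sequence. Each runs from 250 bases before to 50 bases after the start site, 5′ to 3′, from RefSeq on GRCm38.p6, with CCAAT boxes on either strand in capitals. Pairs of the 4 were identical at 86.3% to 93.0% of positions.
Zfp970: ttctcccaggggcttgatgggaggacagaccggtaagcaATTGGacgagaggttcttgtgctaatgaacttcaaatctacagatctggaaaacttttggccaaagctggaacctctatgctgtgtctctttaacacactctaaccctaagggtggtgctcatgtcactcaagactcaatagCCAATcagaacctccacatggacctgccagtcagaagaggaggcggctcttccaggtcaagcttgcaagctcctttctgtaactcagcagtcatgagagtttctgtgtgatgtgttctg
Gm14403: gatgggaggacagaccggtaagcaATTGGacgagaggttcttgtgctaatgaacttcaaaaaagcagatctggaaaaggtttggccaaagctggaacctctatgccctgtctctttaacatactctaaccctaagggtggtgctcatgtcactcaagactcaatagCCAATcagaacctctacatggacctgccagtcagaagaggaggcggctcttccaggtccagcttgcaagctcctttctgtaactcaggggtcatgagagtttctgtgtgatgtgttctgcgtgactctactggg
Gm14325: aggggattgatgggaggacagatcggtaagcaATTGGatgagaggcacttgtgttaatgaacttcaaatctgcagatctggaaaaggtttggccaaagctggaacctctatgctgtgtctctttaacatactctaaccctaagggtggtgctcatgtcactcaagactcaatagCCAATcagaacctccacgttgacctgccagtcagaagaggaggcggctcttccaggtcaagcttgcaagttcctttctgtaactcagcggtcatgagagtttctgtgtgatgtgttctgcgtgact
Gm14326: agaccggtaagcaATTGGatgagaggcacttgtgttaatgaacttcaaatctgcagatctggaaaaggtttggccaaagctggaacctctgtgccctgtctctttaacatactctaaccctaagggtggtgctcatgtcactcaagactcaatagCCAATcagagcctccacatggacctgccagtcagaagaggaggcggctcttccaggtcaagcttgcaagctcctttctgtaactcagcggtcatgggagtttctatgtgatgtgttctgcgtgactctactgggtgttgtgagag
The paired CCAAT boxes begin 211 and 69 bases before the start in Zfp970, 226 and 84 in Gm14403, 218 and 76 in Gm14325, and 237 and 95 in Gm14326.

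**Figure D2:**
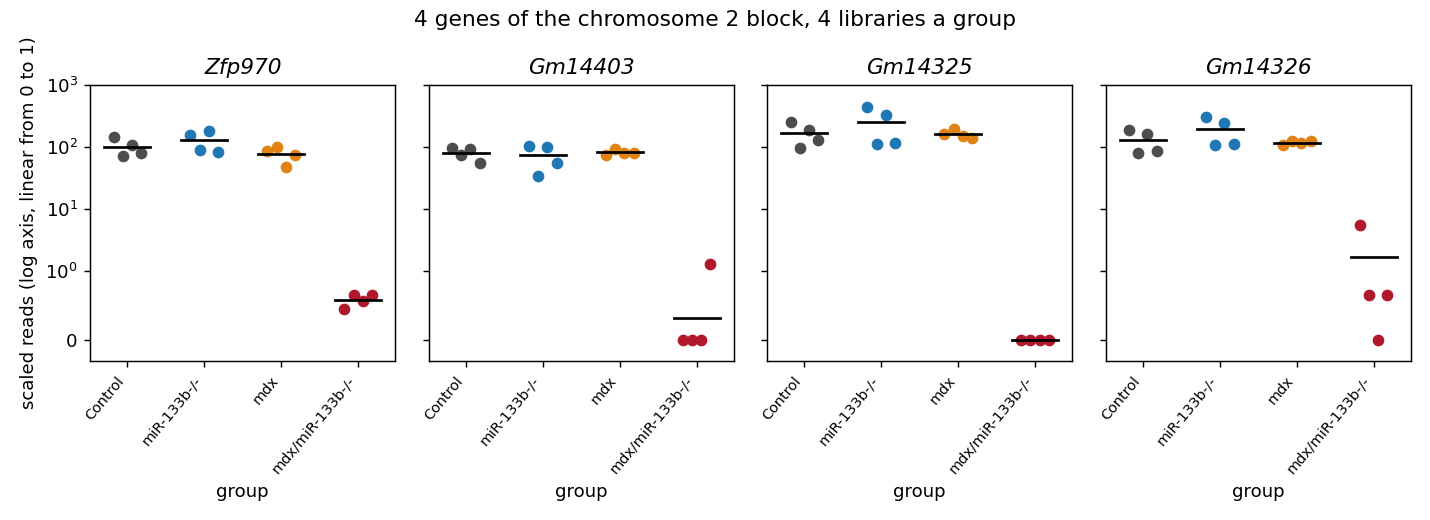
Scaled reads (symmetric log axis, linear from 0 to 1) of Zfp970, Gm14403, Gm14325 and Gm14326 in the 4 libraries of each group. Every mdx/miR-133b-/- point lies at 5.50 or below, while the lowest point of the other groups is 34.3.

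A second kind of sequence is that of the deleted microRNA. The mature strand miR-133b-3p lies at chr1:20682834-20682855 on the plus strand, from RefSeq, with its seed (bases 2 to 8) in capitals.
miR-133b-3p: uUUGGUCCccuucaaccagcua
The letters GGACCAA, the reverse complement of the seed, were sought in the annotated 3′ UTRs. Of 57 genes of the set with a 3′ UTR, 4 held a match (7.02%), none of them an 8mer, beside 9.74% of 780 listed genes, 10.9% of the 101 other genes with mdx near Control and 23.1% of the 39 genes of the mirror set. The UTRs of the set were short, with a median of 583 bases against 1415 over all listed genes. Per kilobase the set held 0.0887 matches, a value that rests on 4 genes, against 0.0563 over all listed genes. The other genes with mdx near Control held 0.0681 and the mirror set 0.105. A match is a description of these letters and not a shown site. The search used the seed letters only, so a match was not shown to be particular to miR-133b.
The 4 sites, with the match in capitals, are:
Paqr4: gcttcactGGACCAAggactcag
Tmem201: tgtggcagGGACCAAccaggctg
D10Jhu81e: gactggcaGGACCAAgggtggac
Gzmm: gcctctgaGGACCAAtaaatcct

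Outside the chromosome 2 block, 15 genes were placed by hand in a mixed group of contraction, membrane currents and signalling. Not all of them fit these names, and their median ratio of mdx/miR-133b-/- to mdx was 0.554. In 12 of them the 2 dystrophic groups did not overlap, against 51 of the 59 genes and 16.2% of all listed genes. The rule chose the genes on this comparison, so such counts, here and for the groups of genes below, are partly fixed by it. Paqr4 (chr17:23736186-23740867), a membrane protein of the progestin and adipoQ receptor family, had the lowest ratio outside the block and read 90, 118, 105 and 104 in Control, 150, 62.8, 67.7 and 72 in miR-133b-/-, 142, 128, 133 and 124 in mdx, and 46.3, 28.5, 30 and 48.1 in mdx/miR-133b-/-. The mdx/miR-133b-/- mean was 71% below the mdx mean, and all 4 libraries lay under the other 12, although 3 of the miR-133b-/- libraries were also lower than the Control libraries. Mien1 had a mean 66.1% below mdx, with miR-133b-/- library 2 inside the mdx/miR-133b-/- range.

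Pomgnt2 (chr9:121981606-121997110) codes for the enzyme that adds a sugar to the O-mannose chain of alpha-dystroglycan, the laminin-binding protein of the dystrophin complex. It read 101, 49.3, 65.1 and 63.4 in Control, 53, 48.5, 77.2 and 100.4 in miR-133b-/-, 47.3, 69.7, 55.2 and 58.9 in mdx, and 27.5, 29.8, 40.4 and 14.5 in mdx/miR-133b-/-, which put the mdx/miR-133b-/- mean 51.4% below mdx and all 4 libraries below the other 12. Pik3ip1 (chr11:3330401-3342971), an inhibitor of phosphoinositide 3-kinase, read 414, 332, 167 and 228 in Control, 236, 202, 393 and 519 in miR-133b-/-, 288, 261, 145 and 202 in mdx, and 87.6, 43.7, 118 and 186 in mdx/miR-133b-/-. Its 2 dystrophic groups overlapped, with mdx library 3 below mdx/miR-133b-/- library 4. Kcnj11 (chr7:46093953-46100764), the pore subunit of the ATP-sensitive potassium channel, read 825, 552, 638 and 551 in Control, 326, 423, 739 and 732 in miR-133b-/-, 594, 490.0, 558 and 479.9 in mdx, and 271, 353, 292 and 159 in mdx/miR-133b-/-. Its mdx/miR-133b-/- libraries lay below mdx, and miR-133b-/- library 1 lay inside their range.

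Tpm1 (chr9:67022590-67049406), the tropomyosin of fast fibres and the gene of the set with the most scaled reads, read 121990, 104866, 106341 and 117358 in Control, 189499, 77348, 102804 and 141368 in miR-133b-/-, 101258, 83901, 108008 and 89756 in mdx, and 62775, 59362, 46915 and 47436 in mdx/miR-133b-/-. The mdx/miR-133b-/- mean was 54122 ± 8144 and the mdx mean 95731 ± 10908 (SD, n = 4). The mdx/miR-133b-/- libraries lay below the other 12, of which miR-133b-/- was the widest. Of 17 genes in the fast fibre list 5 were listed: Pvalb, Actn3, Mylk2, Tpm1 and Myh4. In 5 of 5 all mdx/miR-133b-/- libraries lay below all mdx libraries, against 16.2% of all listed genes. The rule used this comparison for Tpm1 and set Pvalb and Actn3 aside by name. Like every listed gene, the 5 differed at least 1.72-fold between mdx/miR-133b-/- and miR-133b-/-, so the count is tied to how the list was selected. Calm3 had a ratio of mdx/miR-133b-/- to mdx of 0.574, and all 4 libraries lay below the other 12. Npr2 (chr4:43631935-43651244), the receptor guanylyl cyclase for C-type natriuretic peptide, and C1qtnf9, a secreted relative of adiponectin, had ratios of 0.607 and 0.599, with no overlap between mdx/miR-133b-/- and any other library.

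The other genes of this group were the regulatory subunit of casein kinase 2 (Csnk2b), the SNARE-associated Snapin, the Ran-binding Rangrf, Kptn, Asb10 and Myadml2. Their ratios lay between 0.534 and 0.62. In Rangrf and Asb10 the 2 dystrophic groups overlapped. Exons of 8 of the 59 genes overlap a gene on the opposite strand by more than 10% of their bases: Rangrf by 90.7%, Gtf3a by 59.1%, Sdr39u1 by 48.4%, Smarcd3 by 48.2%, Mien1 by 38.8%, Myadml2 by 30.4%, Snapin by 15.5% and Paqr4 by 12.1%. Whether counting used strand is not given in the sources used here, so reads of these genes and of the overlapping genes cannot be told apart.

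**Figure D3:**
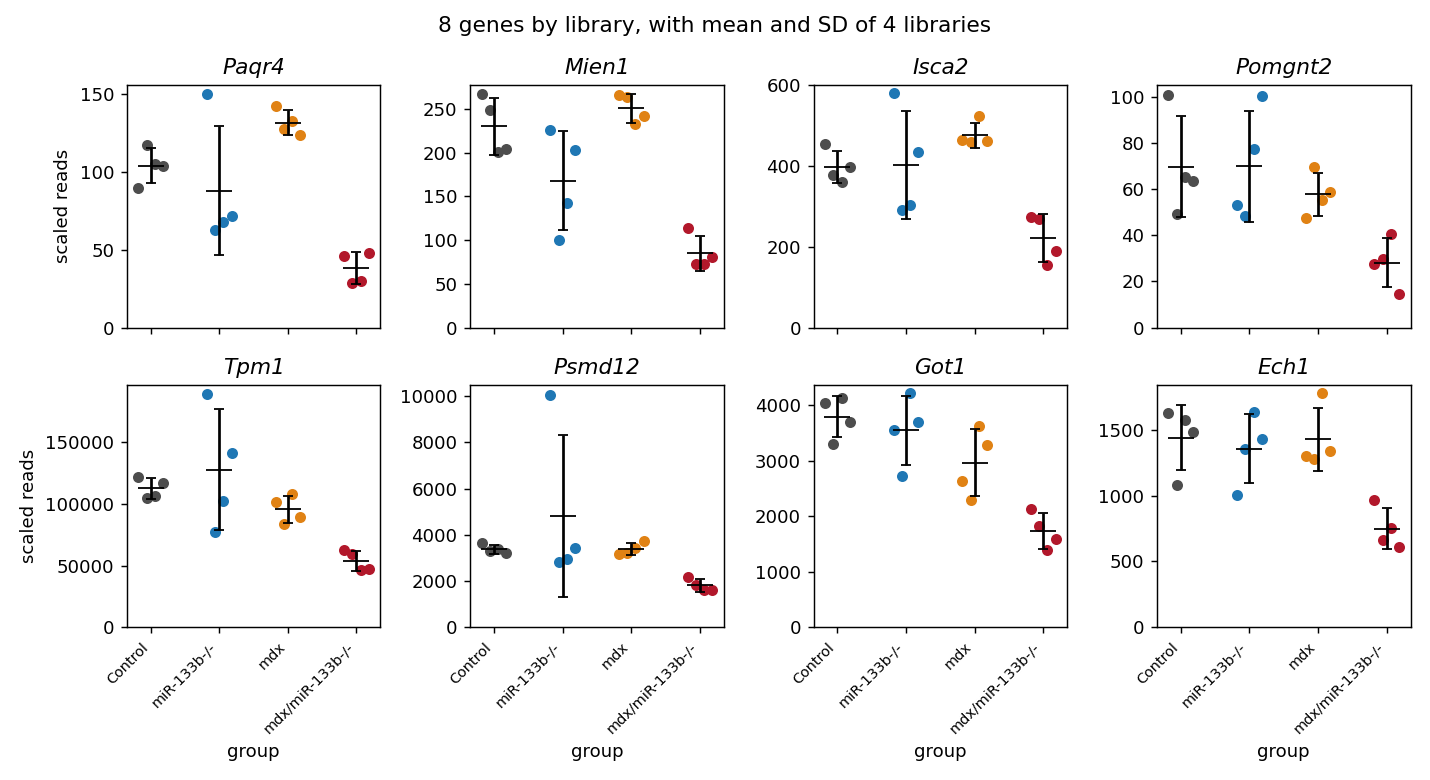
Scaled reads of Paqr4, Mien1, Isca2, Pomgnt2, Tpm1, Psmd12, Got1 and Ech1, each point 1 library, with the mean and SD of the 4 libraries of a group. Each mdx/miR-133b-/- group lies below its mdx group, and Psmd12 has 1 miR-133b-/- library at 10056.

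Mitochondrial and fuel metabolism supplied 15 genes, with a median ratio of mdx/miR-133b-/- to mdx of 0.583. In 12 of them the dystrophic groups did not overlap, and in 7 the double mutant lay below all 12 other libraries. Over all listed genes these shares were 16.2% and 11.6%, and over the 59 genes the counts were 51 and 35. Isca2, Narfl and Cisd1 are iron-sulfur proteins or assembly factors for them. Isca2 (chr12:84773251-84775088), which helps build iron-sulfur clusters in mitochondria, read 454, 377, 360.5 and 398 in Control, 579, 292, 304 and 435 in miR-133b-/-, 463, 458, 523 and 461 in mdx, and 273, 269.7, 156 and 189 in mdx/miR-133b-/-. The mdx/miR-133b-/- mean was 53.4% below mdx, which was itself above Control in 4 of 4 libraries. Narfl (chr17:25773776-25783332), a factor of cytosolic iron-sulfur protein assembly, read 460.2, 372, 369 and 405 in Control, 226, 294, 437 and 432 in miR-133b-/-, 413, 398, 457 and 423 in mdx, and 253, 190.2, 149.6 and 119 in mdx/miR-133b-/-. Its mean was 57.9% below mdx, with miR-133b-/- library 1 inside the double mutant range. Cisd1, an iron-sulfur protein of the outer mitochondrial membrane, had a ratio of 0.575.

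Mrpl30 (chr1:37890477-37898535), a protein of the large subunit of the mitochondrial ribosome, read 773, 564, 699 and 603 in Control, 1598, 313, 623 and 807 in miR-133b-/-, 581, 599, 959.7 and 713 in mdx, and 376, 343, 311 and 352 in mdx/miR-133b-/-. It was the single listed gene of its list, and library 1 of miR-133b-/- stood far above the other 15 libraries. Dmac2, which takes part in complex I assembly, had a ratio of 0.495. Fh1 (chr1:175600374-175625635), the fumarase of the citric acid cycle, read 1802, 1547, 1498 and 1505 in Control, 2256, 772, 1623 and 1725 in miR-133b-/-, 1198, 1111, 1445 and 1288 in mdx, and 1006, 916, 688 and 632 in mdx/miR-133b-/-. The dystrophic groups did not overlap, but miR-133b-/- library 2 lay inside the mdx/miR-133b-/- range, and the ratio to mdx was 0.643.

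Of 8 listed genes of fatty acid and lipid metabolism, 3 belonged to the set, and in 6 of 8 all mdx/miR-133b-/- libraries lay below all mdx libraries, against 16.2% of all listed genes. The same held for 2 of 7 listed genes of glycolysis, 3 of 8 of the citric acid cycle and 3 of 6 of creatine, nucleotide and amino acid energy metabolism. These counts include genes of the set, which the rule chose on this comparison. No gene of these lists was called in miR-133b-/- against Control, as was so for all 831 listed genes (0.00% in either direction). Ech1 (chr7:28825217-28832247), an isomerase for unsaturated fatty acids, read 1629, 1078, 1573 and 1482 in Control, 1007, 1352, 1638 and 1431 in miR-133b-/-, 1304, 1281, 1782 and 1338 in mdx, and 969.7, 663, 754 and 613 in mdx/miR-133b-/-. Echs1 (chr7:140105710-140116476), the short-chain enoyl-CoA hydratase of beta-oxidation, read 1967, 2131, 2041 and 2280.1 in Control, 1363, 1658, 2039 and 2314 in miR-133b-/-, 1657, 1472, 1709.7 and 1613 in mdx, and 1185, 1169, 923 and 939 in mdx/miR-133b-/-. Both had mdx/miR-133b-/- below all 12 other libraries, with ratios to mdx of 0.526 and 0.653. Plin5, which coats lipid droplets at mitochondria, had a ratio of 0.64 with overlapping groups.

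Got1 (chr19:43499752-43524605), the cytosolic aspartate aminotransferase, read 4033, 3301, 4133 and 3703 in Control, 3543, 2723, 4224 and 3692 in miR-133b-/-, 2639.8, 2296, 3621 and 3281 in mdx, and 2133, 1816, 1396 and 1581 in mdx/miR-133b-/-. Ldhb (chr6:142490249-142507957), the heart-type lactate dehydrogenase subunit, read 922, 946, 990.1 and 882 in Control, 767, 924, 1444 and 1069.8 in miR-133b-/-, 736, 499.8, 913 and 915 in mdx, and 657, 449, 368 and 323 in mdx/miR-133b-/-. Bckdk (chr7:127904082-127910221), the kinase that switches off branched-chain ketoacid breakdown, read 1323, 1034, 1035 and 1035 in Control, 840, 702, 1176 and 1301 in miR-133b-/-, 873, 788, 983 and 758 in mdx, and 564, 645, 478 and 561 in mdx/miR-133b-/-. Got1 and Bckdk had mdx/miR-133b-/- below all 12 other libraries, and in Ldhb the dystrophic groups overlapped through mdx library 2. Sord, which oxidises sorbitol, had a ratio to mdx of 0.569, and its mdx to Control ratio of 0.757 was close to the lower edge of the rule. Mmab, which makes adenosylcobalamin, and D10Jhu81e complete this group, with ratios to mdx of 0.659 and 0.583.

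Enzymes of small molecules made a group of 7. Their ratios ran from 0.405 in Sdr39u1 to 0.628 in Gba2, the non-lysosomal glucosylceramidase. Between them lay Rdh14, a retinol dehydrogenase, Nt5c3, a pyrimidine nucleotidase, Ephx1, an epoxide hydrolase, Thnsl2 and Sult1a1. In 5 of the 7 the mdx/miR-133b-/- libraries were below all 12 others, against 35 of the 59 genes and 11.6% of all listed genes.

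Transcription and nuclear proteins made a group of 8, with a median ratio of 0.531, and in all 8 the dystrophic groups did not overlap. The same held for 51 of the 59 genes, which the rule chose on this comparison, and for 16.2% of all listed genes. With the GC and length trend of each library removed, 1 of the 8 genes still met the rule. Tmem201 (chr4:149715375-149738044), an inner nuclear membrane protein, read 459, 395, 453 and 427 in Control, 317, 299, 462 and 425 in miR-133b-/-, 455, 321, 448 and 484 in mdx, and 254, 199, 176 and 183 in mdx/miR-133b-/-, and Fkbp3 (chr12:65062424-65074007), a nuclear prolyl isomerase, read 3671, 3034, 2564 and 2511 in Control, 4556, 1414, 1981 and 2854 in miR-133b-/-, 2208, 2688, 3025 and 2579 in mdx, and 1486, 1491, 1201 and 1236 in mdx/miR-133b-/-. Tmem201 had its 4 double mutant libraries below the other 12, and Fkbp3 had miR-133b-/- library 2 inside the double mutant range. Tcea3 (chr4:136247729-136274898), a transcription elongation factor, read 2776, 2138, 2412 and 2065 in Control, 5516, 1867, 3132 and 2546 in miR-133b-/-, 2433, 1526, 2033 and 1663 in mdx, and 1179, 1319, 1253 and 1064 in mdx/miR-133b-/-. Library 1 of miR-133b-/- stood far above the rest there. Lbx1, the homeobox factor of migrating limb muscle precursors, had a ratio of 0.487, and Smarcd3, the muscle subunit BAF60c of the SWI/SNF remodelling complex, one of 0.575. The corepressor Aes and the BTB protein Kctd15 had ratios of 0.541 and 0.521.

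Protein synthesis, targeting and breakdown held 5 genes, none of whose dystrophic groups overlapped. Of the 59 genes, which the rule chose on this comparison, 51 had no overlap, against 16.2% of all listed genes. Psmd12 (chr11:107479484-107504362), a lid subunit of the 26S proteasome, read 3639, 3286, 3378 and 3210.0 in Control, 10056, 2830.2, 2943 and 3422 in miR-133b-/-, 3176, 3202, 3449.7 and 3734 in mdx, and 2175, 1845, 1608 and 1624 in mdx/miR-133b-/-. The double mutant was lowest throughout, and mdx and Control were nearly level, with a ratio of 1. Anapc5 (chr5:122787459-122821339), a subunit of the anaphase-promoting complex, read 6406, 4633, 4662 and 5019 in Control, 5598, 3041, 5992 and 5924 in miR-133b-/-, 4877, 4239, 4967 and 3831 in mdx, and 2930.3, 2521, 2539 and 3322 in mdx/miR-133b-/-. Here miR-133b-/- library 2 lay inside the double mutant range. Dcaf11, a receptor of a cullin ubiquitin ligase, Srp68 of the signal recognition particle and Abcf2 had ratios of 0.563, 0.616 and 0.643.

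The remaining 5 genes were Tpd52l1, Wdr92, Uaca, Adamtsl4 and Gzmm. Their ratios to mdx were 0.505, 0.572, 0.585, 0.627 and 0.636. Gzmm codes for a granzyme of cytotoxic lymphocytes. It read 167, 115, 162 and 153 in Control, 167, 90.7, 208 and 161 in miR-133b-/-, 123, 123, 82.2 and 129 in mdx, and 83, 98.1, 56.6 and 52.7 in mdx/miR-133b-/-. The listed leukocyte gene Ptprc was at 285.7 to 299.1 in mdx and 134.5 to 659.5 in mdx/miR-133b-/-, against 38.1 to 82.9 in Control. The listed B cell gene Ighm was at 101.6 to 312.3 in mdx and 38.4 to 122.4 in mdx/miR-133b-/-, against 183.5 to 1229.8 in Control. Whether lymphocyte numbers differed was not tested.

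The limit of the rule fell within a continuous range of ratios, between 0.661 and 0.668. The 3 genes just inside were Bckdk, Mmab and Echs1, at ratios of 0.661, 0.659 and 0.653. The 3 genes just outside were Idua, a lysosomal iduronidase, at 0.668, Cops3, a subunit of the COP9 signalosome, at 0.672, and Oxct1, the enzyme that activates ketone bodies, at 0.673. Without each of the 12 libraries of the rule in turn, 34 of the 59 genes met it every time and 25 failed at least once.

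Libraries differed within groups across the whole set. The median log2 level against the Control mean was -0.81, -0.96, -1.20 and -1.24 in mdx/miR-133b-/- libraries 1 to 4, and -0.17, -0.30, -0.07 and -0.22 in mdx. Library 1 of mdx/miR-133b-/- was the highest of its group in 39 genes, and library 4 the lowest in 27. The mirror set moved the other way in these libraries, at 0.61, 0.86, 1.09 and 1.40. The miR-133b-/- libraries stood at 0.12, -0.46, 0.13 and 0.14, with library 2 the lowest of its group in 40 genes and library 1 the widest. The median SD over the 59 genes on the log2 scale was 0.47 in miR-133b-/- against 0.18 in Control and in mdx and 0.31 in mdx/miR-133b-/-.

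**Figure D4:**
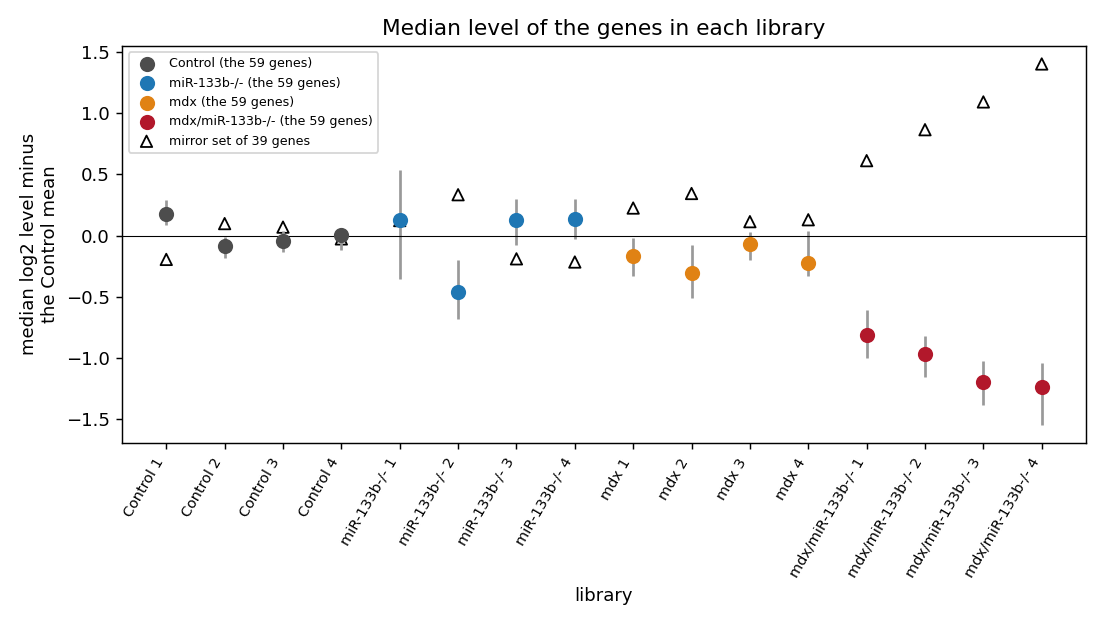
Median log2 level minus the Control mean in each of the 16 libraries for the 59 genes (filled points, with the quartiles as bars) and for the mirror set of 39 genes (open triangles). The mdx/miR-133b-/- medians of the 59 genes lie between -1.24 and -0.81, and miR-133b-/- library 2 lies at -0.46.

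The 59 genes were richer in GC and shorter than the list. The longest transcript had a median GC content of 53.1% and a median length of 2077 bases, against 49.1% and 3431 over all listed genes and 43.6% and 4847 in the mirror set, and 42 of the 59 were above 50% GC. Level followed GC content differently by library: the slope in log2 units per 10% of GC was -0.06, -0.20, -0.45 and -0.49 in mdx/miR-133b-/- libraries 1 to 4, and 0.12, 0.00, 0.13 and 0.02 in mdx. It was 0.17, 0.09, 0.23 and 0.26 in Control and -0.28, 0.03, 0.24 and 0.19 in miR-133b-/-. Per doubling of length the slope was 0.19, 0.22, 0.24 and 0.24 in mdx/miR-133b-/-, and 0.06, 0.09, -0.02 and 0.05 in mdx. Length slopes were -0.19, -0.07, -0.07 and -0.10 in Control and -0.23, -0.01, -0.19 and -0.22 in miR-133b-/-. The trends were fitted on the listed genes only. With the GC and length trend of each library removed, the median log2 difference between mdx/miR-133b-/- and mdx was -0.54 in place of -0.83. In that setting 26 genes met the rule, 22 of them among the 59. These were 4 of 4 in the chromosome 2 block, 5 of 15 in contraction, membrane currents and signalling, and 6 of 15 in mitochondrial and fuel metabolism. Of the enzymes of small molecules 2 of 7 met it, of transcription and nuclear proteins 1 of 8, of protein synthesis, targeting and breakdown 1 of 5, and of the remaining genes 3 of 5. The genes of at most 50% GC outside the chromosome 2 block, 13 in number, moved from -0.80 to -0.77, and the 42 genes above 50% GC from -0.80 to -0.50.

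**Figure D5:**
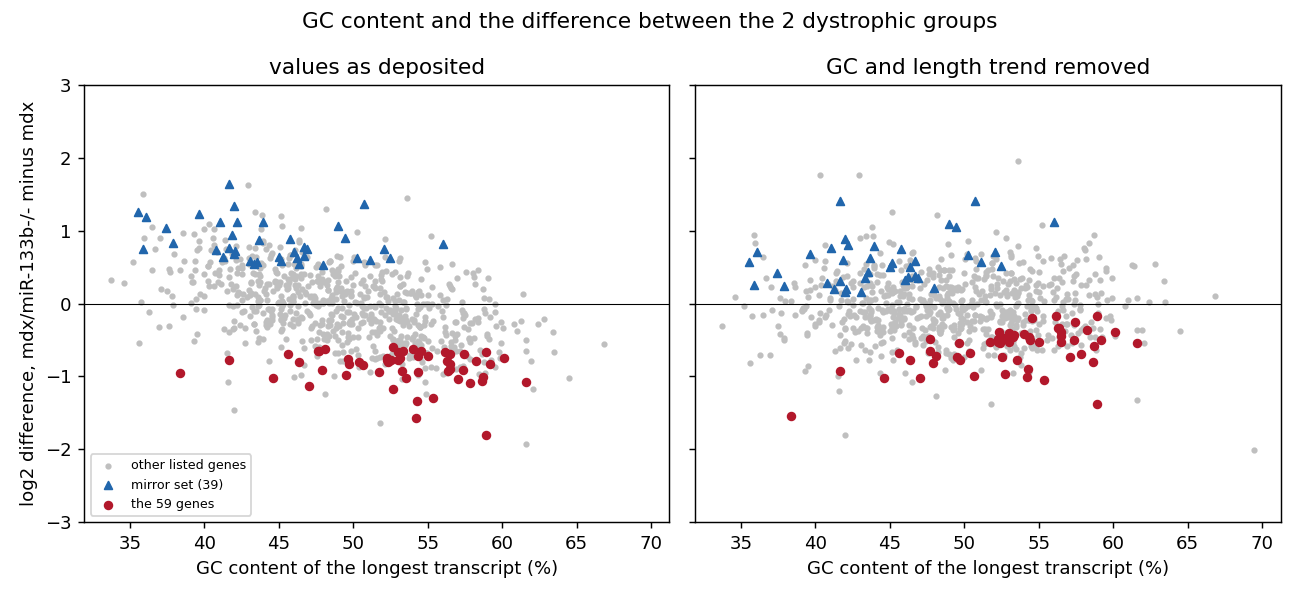
Log2 difference of mdx/miR-133b-/- minus mdx against GC content of the longest transcript for each listed gene, as deposited (left) and with the GC and length trend removed (right), with the 59 genes and the mirror set of 39 marked. The axis ends at 3 on either side and leaves out 6 genes on the left, 4 of them of the 59, and 5 on the right. The 42 genes above 50% GC move from a median of -0.80 to -0.50.

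Some genes of the set lie close together. Within 250 kb of another gene of the set were 9 of the 59 genes (15.3%), against 4 of the 101 other genes with mdx near Control (3.96%). They were the 4 chromosome 2 genes, Gba2 and Npr2 on chromosome 4, 53.1 kb apart, and Smarcd3, Abcf2 and Asb10 on chromosome 5, where Abcf2 lies 13.4 kb from Smarcd3 and 24.4 kb from Asb10. Chromosome 7 held 9 of the 59 genes, out of 52 genes open to the rule (17.3%), and chromosome 11 held 7 of 56 (12.5%), against 8.12% of all 727.

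RefSeq gave a promoter of 300 bases for 52 of the 59 genes and for 626 of the 831 listed. The CCAAT box, the letters CCAAT on either strand, was in 29 of the 52 (55.8%), against 36.1% of the listed genes and 37.9% of all 27025 promoters in the table. Each promoter of the chromosome 2 block held CCAAT boxes, and these near copies were counted separately. The GC box GGGCGG was in 55.8%, against 54.0% and 35.9%. The ETS letters CCGGAAG were in 13.5%, against 9.74% and 9.12%, but in 17.9% of the other genes with mdx near Control. The nuclear respiratory factor core GCATGCG was in 9.62%, against 4.15% and 3.64%. The letters AAGATGG were in 9.62%, against 4.95% of the listed genes, and AAGGTCA in 5.77%, against 3.51%. The other motifs counted were rarer than in the list: TATAAA at 5.77% against 10.7%, CAGCTG at 13.5% against 17.9% and CACGTG at 3.85% against 5.91%. The median GC content of the promoters was 56.8% in the set and 59% in the list. Each motif was counted on its own on both strands, and a match says nothing of binding.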

How the data were processed

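RNA sequencing measured whole tibialis anterior in 16 libraries, 4 per genotype, whose RNA was purified with an Aurum kit (Bio-Rad) and treated with DNase, per the labels. HISAT2, HTSeq and the build GRCm38 are named without versions in the submitters' processing notes. The deposited signal values behave as read counts per gene that the authors multiplied by 1 factor per library: dividing by a factor of 0.459 to 1 found from the low values gave whole reads for 100% of values within 0.001. The deposited table lists 831 genes, all matched to GENCODE M21, and every sample column was mapped.

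Differences were computed on log2(value + 1) with limma 3.58.1 in R 4.3.3, with 1 mean per group over all 16 libraries, a variance trend and Benjamini-Hochberg adjustment at 0.05, and were tested on simulated data. Only miR-133b-/- minus Control is tested. The genes and lists were chosen with earlier results of these data known, and roles were assigned by hand after the names were known. Genes named in full were the 10 lowest ratios to mdx, the 6 highest means, the 2 highest in each list, the 3 smallest p in each direction, and the 3 genes on each side of the limit, leaving out predicted models. Kcnj11, Gzmm and the 3 predicted models of the chromosome 2 block were added after their values were seen. Alternatives were other pseudocounts and scalings, a mean of at least 100, no variance trend, only 2 groups, GC and length trends removed, a replicate block, limma-voom added later, and each library left out in turn.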

Additional observations from a re-analysis of the deposited data

Results flagged for a closer look

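In 240 groups of 4 libraries (59 genes and the median over them, in 4 groups), 16 held a library far from the other 3 by Dixon's criterion; chance gives about 1 in 20. Library 1 of miR-133b-/- was the high one in Psmd12 (10056 scaled reads), Rangrf (1263) and Paqr4 (150). Library 2 of miR-133b-/- was the low one in Dmac2 (146), Srp68 (475) and Anapc5 (3041), and the median log2 level of the 59 genes was also low there, at -0.46. Library 3 of mdx was high in Isca2 (523) and Ech1 (1782) and low in Gzmm (82.2). Library 1 of mdx/miR-133b-/- was high in Dmac2 (175), Csnk2b (702) and Gm14326 (5.50), and library 4 in Gm14403 (1.32). Library 1 of Control was high in Fh1 (1802) and Bckdk (1323).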

How the results depend on the processing

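The 6 genes named for miR-133b-/- minus Control kept their direction, though not their size (Sult1a1, Sdr39u1, Mien1 and Calm3 moved by over 1.5 times), and stayed short of the threshold in all 19 alternatives each, and 0 of the 59 genes were called in any. Relative log expression factors moved the median of all listed genes by -0.36 for mdx minus Control and by 0.15 for miR-133b-/- minus Control. They put the median of the 59 genes at -0.59 for mdx minus Control, left 16 genes meeting the rule (15 of the 59), and turned the near-zero median for miR-133b-/- minus Control from -0.03 to 0.12. With GC and length trends removed, the medians were -0.061 for mdx minus Control and -0.54 for mdx/miR-133b-/- minus mdx, and 26 genes met the rule. Group medians gave 64 genes, a limit of 0.6 gave 41 and one of 0.75 gave 77. Without 1 library at a time the number of genes meeting the rule ran from 47 (without mdx replicate 3) to 69 (without mdx/miR-133b-/- replicate 1). The median for miR-133b-/- minus Control ran from -0.12 to 0.10, that for mdx/miR-133b-/- minus mdx from -0.92 to -0.77, and that for mdx minus Control from -0.26 to -0.17. Same-numbered libraries do not pair: their correlations ran from -0.28 to 0.25 over 24 pairs, with 2 above 0.1. With the replicate block, 0 of the 59 genes were called and the medians were -0.03, -0.83 and -0.23. With the block and the GC and length trend removed together, the medians were -0.54 for mdx/miR-133b-/- minus mdx and -0.061 for mdx minus Control. The cause of these shifts was not tested. The planned quasi-likelihood count model was not run. Library depth limits the low genes: 6 of the 59 had a mean under 100 scaled reads.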
